A study of Mus musculus with 3 samples.

Results

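Genes of receptor-operated and store-operated calcium entry were followed in mesangial cells sorted from adult mouse kidneys: the channel genes Trpc1, Trpc2, Trpc4, Trpc5, Trpc6, Trpc7 and Orai1 and the calcium sensor genes Stim1 and Stim2. The 9 genes were chosen for their family, and a gene counted as measured when a probe set of the array named it and no other gene. By that rule 8 of the 9 were measured, out of 19938 genes with such a probe set. Trpc2 had only a probe set that it shares with 2 neighbouring genes. Orai2 and Orai3, relatives of Orai1, were measured as well and are described beside the 8.

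TRPC proteins form cation channels that let calcium into a cell after a receptor coupled to Gq proteins has activated phospholipase C. STIM proteins sit in the membrane of the endoplasmic reticulum, sense that its calcium store has emptied, and open ORAI channels in the plasma membrane. In mesangial cells, the contractile cells between the capillary loops of the glomerulus, calcium that enters by such routes after angiotensin II or other vasoconstrictors is known to accompany contraction.

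The 3 samples form 1 group, adult male CD-1 mice carrying the transgene Tg(Meis1-EGFP)FO156Gsat, a bacterial artificial chromosome with green fluorescent protein under Meis1 regulatory sequence. Glomeruli from the kidney cortex were sieved after collagenase, taken apart with trypsin and sorted for fluorescence. The sort selects for cells in which that regulatory sequence was active, and its purity was not tested here. Each sample was 1 kidney, not pooled, on 1 array, and whether the kidneys came from separate mice is not stated, so the spread given here may be technical in part. There was no other population and no treatment, and no difference between conditions could be tested. In a bulk sample, fewer cells of a type and less RNA per cell cannot be told apart.

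All values are the deposited log2 signals of probe sets, with the mean ± SD over n = 3 samples. To be called above the threshold, a gene had to pass in every sample the 95th percentile of 1269 silent probe sets. They belong to keratin-associated proteins and to odorant, pheromone and trace amine receptors, families assumed to be mostly silent in kidney cells. These thresholds were 7.48, 7.46 and 7.40 in samples 1, 2 and 3, and a gene less than 1 above them was close to background. Over all named genes 58.0% were above the threshold and 32.7% were above it by more than 1. Of 16 mesangial marker genes 15 were above by more than 1 in every sample, as were 8 of 10 smooth muscle, 9 of 15 endothelial and 3 of 11 podocyte marker genes, and none of 12 tubule and 11 leukocyte ones. The tubule gene Umod, at 9.51, 9.18 and 8.22, was above by more than 1 in samples 1 and 2. Probe sets differ in affinity, so levels of different genes carry no order of amount.

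Of the 8 measured genes 6 were above the threshold (75.0%, beside 58.0% of all named genes) and 5 were above it by more than 1 (62.5%, beside 32.7%). They were Trpc1, Trpc4, Trpc6, Stim1 and Stim2, with Orai1 above by less than 1, and Trpc5 and Trpc7 were not above. The median margin over the threshold was 1.63 for the 8 genes and 0.35 for all named genes. With 8 genes this is a description, and the share is not called particular to them.

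**Figure D1:**
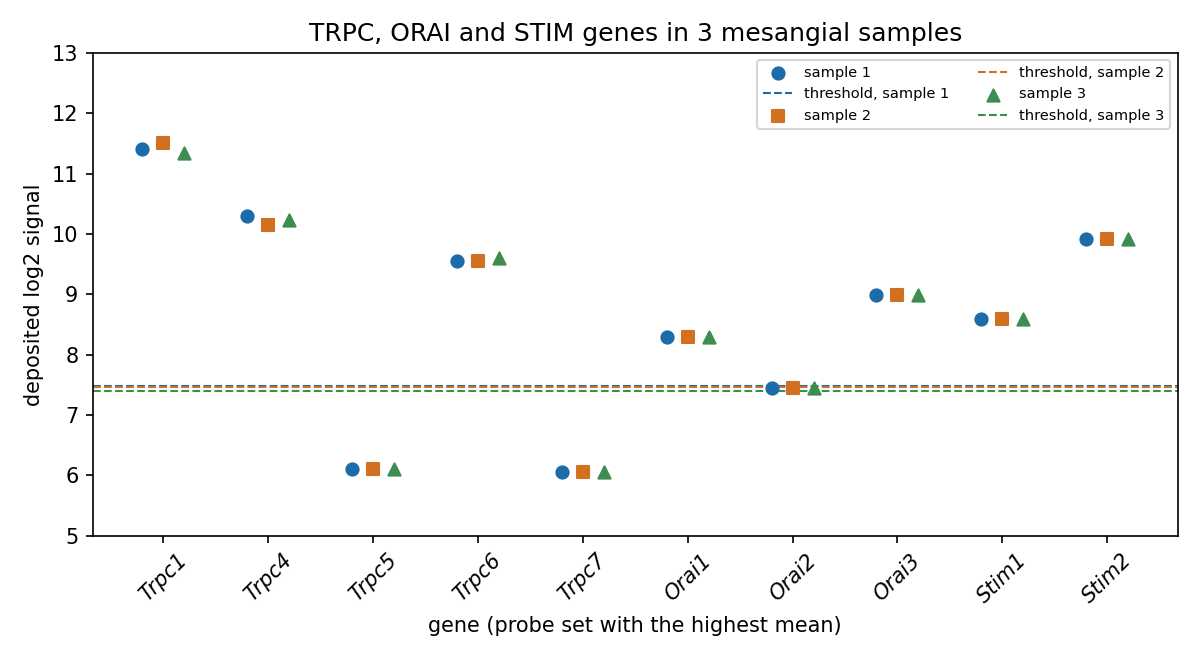
Deposited log2 signal of the 10 measured TRPC, ORAI and STIM genes in samples 1, 2 and 3 (points), with each sample's silent-gene threshold as a dashed line. Trpc1, Trpc4, Trpc6, Orai1, Orai3, Stim1 and Stim2 lie above the lines, Orai2 lies on them, and Trpc5 and Trpc7 lie more than 1 below.

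The TRPC genes fall into subfamilies of close relatives, and both subfamilies with measured pairs held a gene above the threshold and a gene below it. Trpc4 and Trpc5 encode close relatives that both pair with TRPC1. Trpc6 and Trpc7 encode channels opened by diacylglycerol, a product of phospholipase C. The start regions of these 4 genes run from 250 bases before to 50 bases after the gene start in the RefSeq annotation of GRCm38.p6. They are shown because the pairs also differ in CG dinucleotides, which are in capitals. Orai2 and Orai3, whose start regions are not shown, differ the other way. Orai2, not above the threshold, has 24 CG and Orai3, above it, has 11.
Trpc4, chr3:54155807-54156106, plus strand: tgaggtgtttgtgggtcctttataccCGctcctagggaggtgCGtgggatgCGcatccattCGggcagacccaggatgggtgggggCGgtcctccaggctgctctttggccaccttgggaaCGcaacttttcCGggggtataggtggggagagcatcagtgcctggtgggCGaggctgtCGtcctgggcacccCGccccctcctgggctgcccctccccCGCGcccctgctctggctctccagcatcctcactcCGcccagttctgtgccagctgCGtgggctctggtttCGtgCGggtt
Trpc5, chrX:144688131-144688430, minus strand: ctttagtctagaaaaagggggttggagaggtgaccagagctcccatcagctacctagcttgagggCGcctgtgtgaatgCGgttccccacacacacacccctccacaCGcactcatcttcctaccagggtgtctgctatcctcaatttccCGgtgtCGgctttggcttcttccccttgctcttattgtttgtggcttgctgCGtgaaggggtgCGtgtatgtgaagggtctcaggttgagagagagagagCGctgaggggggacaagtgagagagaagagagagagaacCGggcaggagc
Trpc6, chr9:8543892-8544191, plus strand: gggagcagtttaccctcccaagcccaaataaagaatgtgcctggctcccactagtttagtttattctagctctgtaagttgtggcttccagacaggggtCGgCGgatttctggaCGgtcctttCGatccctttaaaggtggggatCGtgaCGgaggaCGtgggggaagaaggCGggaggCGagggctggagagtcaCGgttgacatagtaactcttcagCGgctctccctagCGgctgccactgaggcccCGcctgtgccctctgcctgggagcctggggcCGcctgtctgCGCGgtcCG
Trpc7, chr13:56895740-56896039, minus strand: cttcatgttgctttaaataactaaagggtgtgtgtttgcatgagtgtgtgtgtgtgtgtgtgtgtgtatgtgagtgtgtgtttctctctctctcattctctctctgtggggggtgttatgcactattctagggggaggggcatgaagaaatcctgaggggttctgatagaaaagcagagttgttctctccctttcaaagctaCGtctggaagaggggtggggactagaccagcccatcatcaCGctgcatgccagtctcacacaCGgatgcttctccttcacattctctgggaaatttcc

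Trpc1 (Entrez gene 22063) encodes a subunit that assembles with other TRPC proteins. Its signal was 11.40, 11.52 and 11.34 in samples 1, 2 and 3 (11.42 ± 0.09, n = 3). All 3 samples lay at least 3.92 above their thresholds, with sample 2 highest and sample 3 lowest. The samples spanned 0.18, and of 328 genes above the threshold with 3 different values and a mean within 0.5 of Trpc1, 42.4% had a smaller SD.

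Trpc4 (Entrez gene 22066) had 10.30, 10.15 and 10.24 in samples 1, 2 and 3 (10.23 ± 0.07, n = 3). Every sample was at least 2.69 above its threshold, and sample 2, the highest for Trpc1, was the lowest for Trpc4. The samples spanned 0.15. Of 721 genes above the threshold with 3 different values and a mean within 0.5 of Trpc4, 26.6% had a smaller SD. Genes with repeated values were left out of that share. Its close relative Trpc5 (Entrez gene 22067) had 6.10 in each of the 3 samples, with margins of -1.38 to -1.30 against the thresholds, and no sample came near them.

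Trpc6 (Entrez gene 22068), whose human counterpart is a disease gene of podocytes, the epithelial cells of the filtration barrier, had 9.55, 9.55 and 9.61 in samples 1, 2 and 3 (9.57 ± 0.03, n = 3). The 3 samples were at least 2.07 above their thresholds, with samples 1 and 2 identical and sample 3 highest. The span was 0.058. Trpc7 (Entrez gene 26946) had 6.05 in each sample, with margins of -1.43 to -1.35, and like Trpc5 it was below the threshold throughout.

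Podocytes are known to express Trpc6 too, and podocyte marker genes gave mixed values. Of 11 measured, 7 were above the threshold and 3, Wt1 at 10.15 ± 0.08, Cd2ap at 11.21 ± 0.00 and Npnt at 8.51 ± 0.00, by more than 1 (n = 3). The slit diaphragm gene Nphs1 at 7.39 ± 0.06 and the podocyte phosphatase gene Ptpro at 6.75 ± 0.08 were not above it in every sample, nor were Tcf21 and Clic5 (n = 3). The summed log2 signal of the 11 genes was 90.42, 89.95 and 90.71 in samples 1, 2 and 3. It was lowest in sample 2 and highest in sample 3. The 7 genes above the threshold deviated from their own means by 0.0233, -0.0375 and 0.0142 on average. These 7 were thus also lowest in sample 2 but highest in sample 1. Smooth muscle and endothelial lists were also highest in sample 3, like Trpc6, with mean deviations there of 0.11 and 0.050, and the tubule and mesangial lists were lowest there. Of named genes above the threshold with 3 different values, 40.2% were highest in sample 3. The part of podocytes or of any other cell type in the Trpc6 signal was not tested.

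Trpc2, which encodes a channel of pheromone-sensing neurons in the mouse, had 1 probe set that also names Xndc1, a neighbouring gene, and Xntrpc, a transcript that joins both. It had 7.60 in each sample, 0.12 above the highest of the thresholds. The signal cannot be assigned to any of the 3 genes.

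The STIM sensors were both above the threshold by more than 1. Stim1 (Entrez gene 20866), the main sensor of store depletion, had 8.59 in each of the 3 samples, 1.11 to 1.18 above the thresholds. Stim2 (Entrez gene 116873), a sensor that responds to smaller losses from the store, had 9.91 in each sample, 2.43 to 2.51 above them. Neither gene varied between samples in the deposited values.

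Orai1 (Entrez gene 109305), the pore-forming subunit of the store-operated channel in many cells, had 8.29 in each sample, which was 0.81 to 0.89 above the thresholds and so close to background. Orai3 (Entrez gene 269999), a further pore subunit, had 8.99 in each sample and was above by 1.51 to 1.58. Orai2 (Entrez gene 269717) had 7.45 in each sample with the brighter of its 2 probe sets and 7.39 with the other. The brighter value lay just below the thresholds of samples 1 and 2 and just above that of sample 3, so Orai2 was not called. The 3 pore genes thus covered values on both sides of the threshold, with Orai3 alone above by more than 1 in every sample.

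Repeated values limit what the spread can say. Of the 8 measured genes 5, namely Trpc5, Trpc7, Orai1, Stim1 and Stim2, carried the same value in all 3 samples, as did 9546 of 18685 named genes (51.1%). The share was 39.4% among named genes above the threshold and 67.3% among those not above. An SD of 0.00 is therefore no sign of an exact measurement. Only Trpc1 and Trpc4 had 3 different values.

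**Figure D2:**
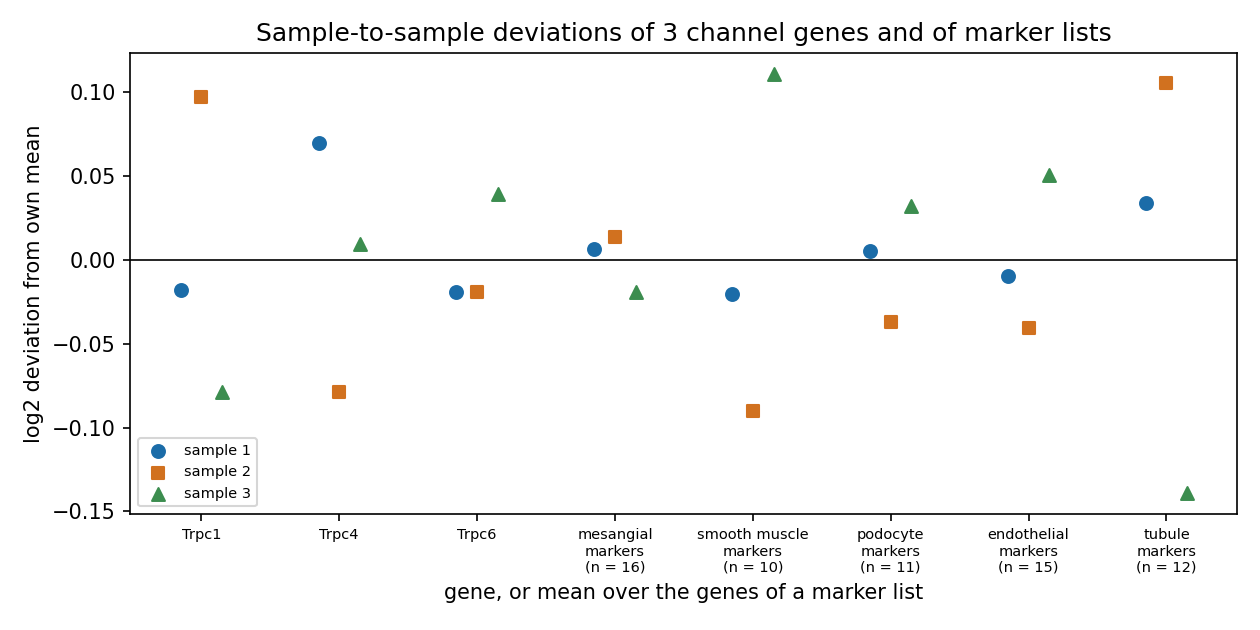
Log2 deviation of each sample from the gene's own mean for Trpc1, Trpc4 and Trpc6, and the mean of such deviations over each marker list (number of genes below the name); points are samples 1, 2 and 3. Sample 2 is highest for Trpc1 and lowest for Trpc4. It is also the lowest for the smooth muscle, podocyte and endothelial lists. For the tubule and mesangial lists sample 2 is the highest and sample 3 the lowest, as for Trpc1. The order of the mesangial list rests on Art3 and Igfbp5.

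Marker lists of other cells also shifted between samples, as did genes in general. Of 3218 named genes above the threshold with 3 different values, 38.9% were lowest in sample 2, like Trpc4, and 25.6% were highest there, like Trpc1. Trpc1 deviated by -0.018, 0.097 and -0.079 from its mean in samples 1, 2 and 3, and Trpc4 by 0.069, -0.079 and 0.0091. The 10 smooth muscle marker genes, 9 of them above the threshold, summed to 103.03, 102.34 and 104.34, lowest in sample 2. The 12 tubule marker genes, 7 of them above the threshold, summed to 92.57, 93.42 and 90.49, highest in sample 2. Calb1 alone went from 7.72 in sample 1 to 8.66 in sample 2, a larger rise than that of the tubule sum. Of 5 tubule genes with 3 different values 4 were highest in sample 2, and 1, Umod, was highest in sample 1. The 15 endothelial marker genes, 14 of them above the threshold, summed to 135.79, 135.33 and 136.69, lowest in sample 2. The 16 mesangial ones summed to 180.57, 180.69 and 180.16, highest in sample 2 and lowest in sample 3, as for Trpc1. That order rested on Art3, with 11.60, 11.80 and 11.49, and Igfbp5, with 12.84, 12.82 and 12.48. Of 9 mesangial genes with 3 different values 4 were highest in sample 1, 3 in sample 2 and 2 in sample 3. The part of these shifts in the deviations of Trpc1 and Trpc4 was not tested.

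Among 3217 genes above the threshold with 3 different values, the deviations of 57 lay within a distance of 0.05 of those of Trpc1, the measured gene with the largest SD. The closest were the histocompatibility gene H2-T10 at a distance of 0.0016, the lipid phosphatase gene Plpp3 at 0.003 and Gstk1, for a glutathione transferase, at 0.012. The distance is Euclidean, over the deviations of 3 samples from a gene's own mean, and so few samples match many genes by their number alone.

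CG dinucleotides near the start were counted for the family because CG-rich starts are common among genes in wide use. The motif CG reads the same on both strands, and 98.1% of 14549 named genes with a listed start region held at least 1. The 6 measured genes above the threshold held more of them than the 2 that were not. Trpc1 had 22, Trpc4 16, Trpc6 17, Orai1 36, Stim1 38 and Stim2 39 in 300 bases. Trpc5 had 9 and Trpc7 had 3.

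The relatives outside the 8 did not keep this split, since Orai3, above the threshold, had 11 CG and Orai2, not above it, had 24. Over all named genes the median was 21.0 CG for 8694 genes above the threshold and 7.50 for 5855 genes not above. Of genes with fewer than 10 CG 30.2% were above the threshold, and of genes with 10 or more 74.2% were. The counts of the 8 genes thus ran the same way as those of the named genes in general, and those of Orai2 and Orai3 ran the other way. A count of letters says nothing of the factors that bind there.

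**Figure D3:**
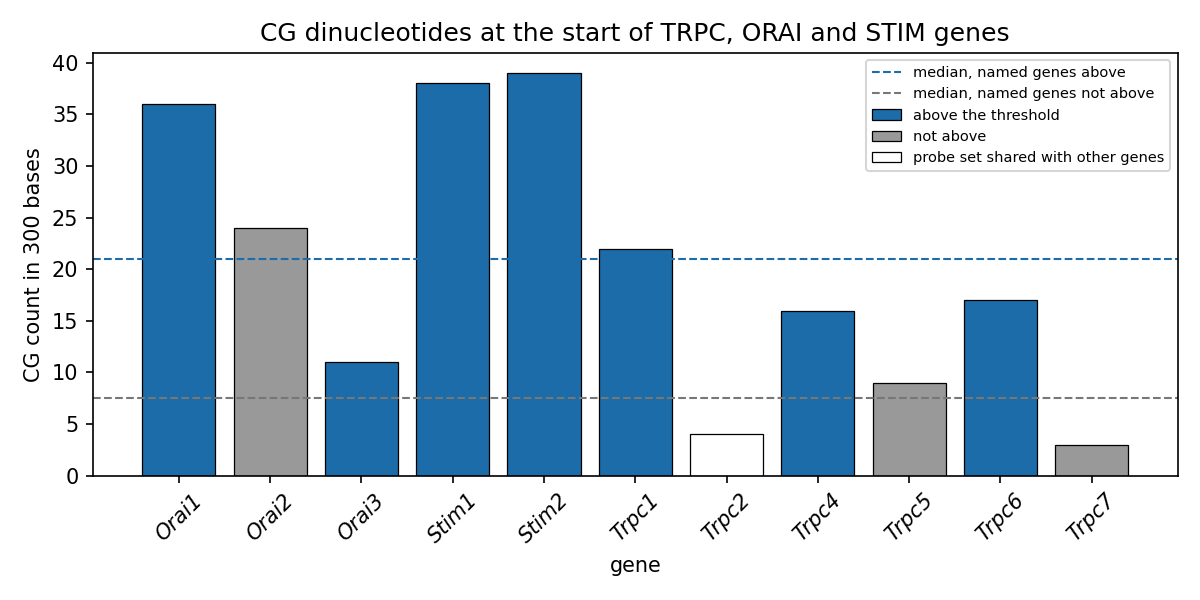
Number of CG dinucleotides in the 300 bases around the start of each gene (bars), coloured by whether the gene was above the threshold, with the medians of named genes above (21.0) and not above (7.50) as dashed lines. Trpc5 and Trpc7 have 9 and 3, and the 6 measured members above the threshold have 16 to 39. Orai3, above the threshold, has 11 and Orai2, not above it, has 24.

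Around the entry channels, 8 lists of genes, the family itself among them, were counted, from the receptors that start the signal to the phosphatase that reads it, 127 measured genes in all. Of these 69 were above the threshold (54.3%, beside 58.0% of all named genes) and 48 by more than 1 (37.8%, beside 32.7%). The lists differed in both shares, and shares near those of all named genes say nothing particular about a list.

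**Figure D4:**
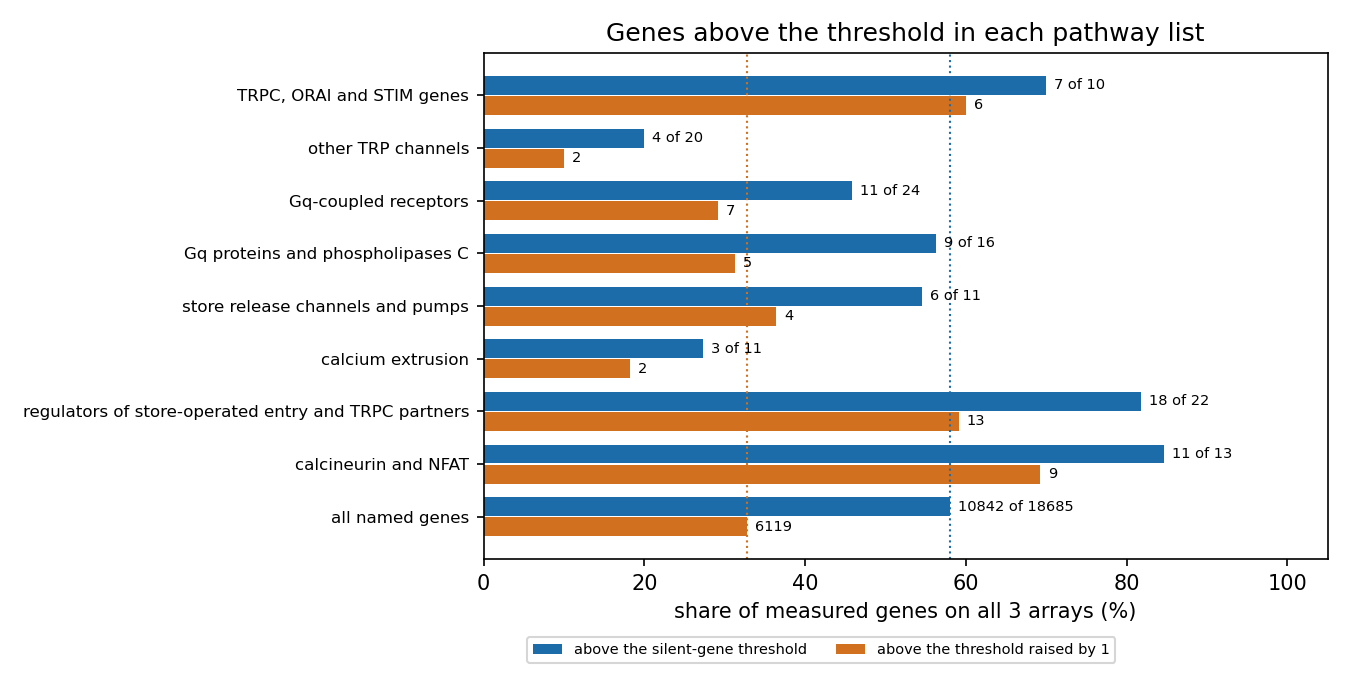
Share of the measured genes of each pathway list above the silent-gene threshold (blue) and above the threshold raised by 1 (orange) on all 3 arrays, with the counts beside the bars and the shares of all named genes (58.0% and 32.7%) as dotted lines. Calcineurin and NFAT genes and regulators of store-operated entry lie to the right of both lines, and other TRP channels and calcium extrusion genes lie to the left.

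At the start of the route, 11 of 24 receptors that couple to Gq proteins were above the threshold (45.8%) and 7 by more than 1, with a median margin of 0.17. The receptor genes Agtr1b, Ednra, F2rl1, Adra1a and Adra1d were not analysed here. At the 90th percentile threshold 18 of the 24 passed (75.0%, beside 68.8% of all named genes), so the list changed sides of the share of all named genes with the threshold. The angiotensin II receptor gene Agtr1a had 12.43, 12.54 and 12.48 in samples 1, 2 and 3 (12.48 ± 0.05, n = 3). S1pr3, for a receptor of sphingosine 1-phosphate, had 11.93, 12.02 and 11.98, and the thrombin receptor gene F2r had 11.14, 11.41 and 11.46. These 3 were above the threshold by more than 1 in every sample, and F2r was lowest in sample 1. The leukotriene receptor gene Cysltr1, at 5.93 ± 0.02, was far below it (n = 3). The serotonin receptor gene Htr2b, with 7.28, 8.20 and 7.99, had the largest SD of the list and passed the threshold in samples 2 and 3 only.

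Of 16 genes for Gq proteins and phospholipases C, which cut a membrane lipid into inositol trisphosphate and diacylglycerol, 9 were above the threshold (56.3%) and 5 by more than 1, with a median margin of 0.26. The Gq-class subunit genes Gna11 and Gnaq had 10.35 ± 0.03 and 9.99 ± 0.05 (n = 3). The phospholipase gene Plcb3 had 9.84 ± 0.03 and Plcb2 had 8.96, 8.65 and 8.72, highest in sample 1. Plch1, at 6.04 in each sample, did not pass the threshold.

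Of 11 genes of store release and refilling 6 were above the threshold (54.5%) and 4 by more than 1, with a median margin of 0.43. Atp2a2, which encodes the pump SERCA that refills the store, had 11.74, 11.80 and 11.93 (11.82 ± 0.10, n = 3), highest in sample 3. The pump inhibitor phospholamban, encoded by Pln, had 9.63, 9.51 and 9.92 (9.69 ± 0.21, n = 3), lowest in sample 2. The smooth muscle, podocyte and endothelial lists were lowest there too, as were 38.9% of named genes above the threshold with 3 different values. Tmco1, for a calcium leak channel of the endoplasmic reticulum, had 10.61 ± 0.02, and the release channel gene Ryr3 had 6.54 in each sample (n = 3). Itpr1 was not analysed here. The other inositol trisphosphate receptor genes, Itpr2 and Itpr3, were chosen after their values were seen. Itpr2, at 8.25 ± 0.00, was above the threshold by less than 1 (n = 3). Itpr3, at 7.46 in each sample, was not above it in every sample.

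Of 11 genes that carry calcium out of the cytoplasm to the outside or into mitochondria 3 were above the threshold (27.3%) and 2 by more than 1, with a median margin of -0.33. At the 90th percentile threshold 8 of the 11 passed (72.7%, beside 68.8% of all named genes), so the list's place below the share of all named genes rests on the threshold. The plasma membrane pump gene Atp2b1 had 11.34 ± 0.00 and the sodium-calcium exchanger gene Slc8a1 9.67 ± 0.00 (n = 3). Slc8b1, for a mitochondrial exchanger, had 8.11 ± 0.11 and was above by less than 1 (n = 3). The exchanger genes Slc24a2 at 6.02 and Slc24a3 at 7.42, 6.97 and 6.98 were not above the threshold in any sample. Each plasma membrane class thus had a gene above it by more than 1, except the Slc24a exchangers, of which none of the 4 measured passed.

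Of 22 regulators and partners of STIM, ORAI and TRPC proteins 18 were above the threshold (81.8%) and 13 by more than 1, with a median margin of 1.31. The calmodulin genes Calm2 and Calm3 had 13.30 ± 0.03 and 10.84 ± 0.19, and Septin4, for a filament-forming GTPase, had 11.86 ± 0.02 (n = 3). Calm3 was highest in sample 1, with 11.05, 10.67 and 10.81. Saraf, whose product dampens store-operated entry and which was chosen after its values were seen, had 9.90 in each sample. Jph1, for a junction protein of skeletal muscle, had 6.87 and was not above the threshold. This list mixes broadly used genes such as the calmodulins with specific ones.

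Downstream, 11 of 13 calcineurin and NFAT genes were above the threshold (84.6%) and 9 by more than 1, with a median margin of 1.22. The catalytic subunit genes Ppp3ca and Ppp3cb of calcineurin, the calcium-dependent phosphatase, had 10.48 ± 0.05 and 10.44 ± 0.05, and the calcineurin regulator gene Rcan2 had 10.44 ± 0.09 (n = 3). Ppp3r2, the regulatory subunit of testis, had 4.70, 4.90 and 5.08 and was not above it. Of the NFAT genes, whose products calcineurin sends to the nucleus, Nfatc2 at 7.12 in each sample was the other gene not above the threshold and was chosen after its values were seen.

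Other TRP channels were mostly below the threshold, with 4 of 20 measured genes above it (20.0%) and 2 by more than 1, and a median margin of -0.77. Trpm7, for a channel with a kinase domain, had 10.03 in each sample, and the lysosomal channel gene Mcoln1 had 9.46, 9.31 and 9.31. Trpm4, a channel opened by calcium inside the cell, had 8.35, and Trpv4, a channel that responds to swelling and chosen after its values were seen, had 7.98 ± 0.07, both above by less than 1 (n = 3). The irritant sensor gene Trpa1, at 5.28, was not above it.

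**Figure D5:**
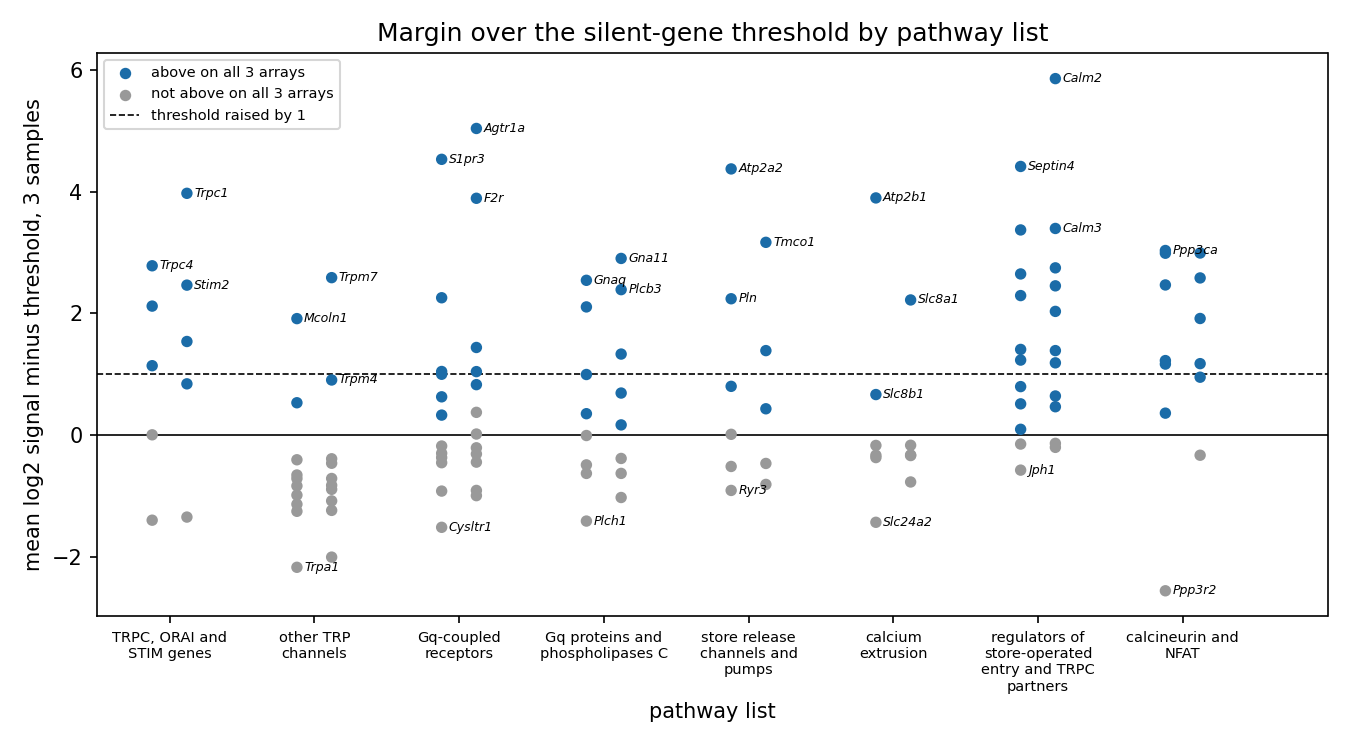
Mean log2 signal minus the silent-gene threshold over 3 samples for every measured gene of the pathway lists (points; blue above on all 3 arrays, grey not), with the threshold at 0 and the threshold raised by 1 as a dashed line. Trpc1, Trpc4 and Stim2 stand above the dashed line beside Agtr1a, S1pr3 and F2r of the receptors, Gna11 and Gnaq, Atp2a2, Atp2b1 and Calm2; heights of different genes carry no order of amount.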

How the data were processed

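Per the labels' protocols, RNA of 3 sorted samples went through 1 round of amplification and biotin labelling, with 1 Affymetrix array for each. The submitters' processing notes name Affymetrix Expression Console as the source of the deposited log2 signals. Not given in the sources used here are its version, the background correction and the way probes were summarised. Base 2 was inferred from the highest value, 14.39. The array medians of 7.53, 7.56 and 7.54 lay close together, and how the arrays were scaled and centred is unknown. Identical values across arrays may make SDs too small. The number of arrays limits the precision.

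The values were used as deposited, with pandas 2.3.3 in Python 3.11.15. Of 35557 probe sets, 21789 named exactly 1 gene, 1621 named several and the rest were unnamed. Symbols were updated by Entrez number for 21698 of them (RefSeq, GRCm38.p6), and each gene took its probe set with the highest mean. Of 1253 silent genes 59 (4.71%) passed the threshold. Genes, lists and the naming rule (from each list the 3 highest means, the lowest mean and the largest SD) were chosen with earlier results of these data known. With 1 group no test was made. Tried alternatives were other thresholds, silent families, probe sets, scalings and leaving out each sample.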

Additional observations from a re-analysis of the deposited data

Results flagged for a closer look

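The probe set shared by Trpc2, Xndc1 and Xntrpc was left out of the counts, and it carried a signal of 7.60 in every sample, which is above the silent-gene thresholds of 7.48, 7.46 and 7.40 by less than 1.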

How the results depend on the processing

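The count of 6 of 8 genes above the threshold was 6 without any 1 of the samples and under the 90th percentile, the olfactory receptors alone, the mean over the arrays, other probe set choices, quantile normalization and a common median. It was 5 at the 99th percentile and at the threshold raised by 1, where the lowest margin of Orai1 was -0.068 and -0.19, and 7 of 9 when the shared probe set of Trpc2 was used. Orai2 passed at the 90th percentile (0.37), with olfactory receptors alone (0.036) and at the mean over the arrays (0.0042). The other 8 genes of the family stayed on their side of the threshold under all 13 alternatives. Named genes above the threshold numbered 10842 (58.0%), with 12854 (68.8%) at the 90th percentile and 6599 (35.3%) at the 99th. They numbered 6119 (32.7%) at the threshold raised by 1 and 10874 to 11013 without 1 sample. Beside these shares, the 8 genes had 75.0% at the 90th percentile, and 62.5% at the 99th and at the threshold raised by 1. Pathway genes numbered 69 (54.3%), with 88 (69.3%) at the 90th percentile and 51 (40.2%) at the 99th. They numbered 48 (37.8%) at the threshold raised by 1 and 69 to 70 without 1 sample. Receptors changed to 18 (75.0%) at the 90th percentile and 7 (29.2%) at the threshold raised by 1, against 11 (45.8%). Calcium extrusion genes changed to 8 (72.7%) at the 90th percentile, against 3 (27.3%). Phospholipase and Gq genes changed to 5 (31.25%) at the threshold raised by 1, against 9 (56.25%). Other TRP channels changed to 2 (10.0%) at the 99th percentile and at the threshold raised by 1, against 4 (20.0%). A higher threshold passes fewer genes by construction. No paired analysis was possible because there was 1 group. The signal of Orai2, at the thresholds, cannot be told from background, and Orai1 passed in 11 of the 13 alternatives.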
